A study of Mus musculus with 8 samples.

Results

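The miR-290 to miR-295 cluster is a set of mouse miRNA hairpins read from one stretch of chromosome 7, and its members in mouse sperm were taken by name, as every row of the count table for a mature arm of miR-290, miR-291a, miR-291b, miR-292, miR-293, miR-294 or miR-295. Of 387 mature miRNAs listed in the table, 6 were members. They were both arms of miR-293 (mmu-miR-293-5p and mmu-miR-293-3p), both arms of miR-292 (mmu-miR-292-5p and mmu-miR-292-3p), and the 3p arms of miR-294 and miR-295. Small RNA was sequenced from sperm of C57BL/6 adults aged 2 months, in 4 Trained and 4 Exposed libraries. The series concerns olfactory treatments, and neither is described further in the labels. The title line of the count table calls the first group AceTrained, and both groups carry the prefix F0. No untreated group was analysed here. The labels do not say whether the 4 libraries of a group are from different animals, and the p-values cover only the spread between these libraries, which may be technical.

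In the mouse the cluster is made as one primary transcript, which is best known from embryonic stem cells and the early embryo, and it is also expressed in primordial germ cells. Each hairpin is cut into a 5p and a 3p arm, and bases 2 to 8 of a mature arm, the seed, decide most of its pairing with target messenger RNAs. The 3p arms of miR-291a, miR-294 and miR-295 carry a seed with the letters AAGUGC, shared with the miR-302 family and, shifted by a base, with the miR-17 family. In embryonic stem cells these 3p arms are known for repressing inhibitors of the G1 to S transition of the cell cycle.

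The sequences below are those of the arms that sperm reads were assigned to, with the seed in capitals, since the seed groups the arms. They were read from a RefSeq table of GRCm38.p6, which held 5 of the 6 members. The table's miR-292-5p was matched to the present name miR-292a-5p, and miR-292-3p had no matched sequence.
miR-293-5p: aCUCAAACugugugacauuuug
miR-292-5p: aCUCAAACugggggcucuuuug
miR-293-3p: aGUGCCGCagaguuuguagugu
miR-294-3p: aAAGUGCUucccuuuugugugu
miR-295-3p: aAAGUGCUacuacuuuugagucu

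miR-293-5p and miR-292-5p had the same seed, CUCAAAC, and the same base at 17 of 22 positions counted from the 5′ end. In the RefSeq table that seed belonged to 3 mature miRNAs, the third being miR-290a-5p, so it is a seed of the cluster's 5p arms. miR-294-3p and miR-295-3p had the seed AAGUGCU, as did miR-291a-3p, miR-302b-3p and miR-302d-3p. The miR-293-3p sequence held the letters AGUGC from its first base, and its seed GUGCCGC was found in no other mature entry of that table. miR-294-3p and miR-291a-3p had the same base at 19 of 22 positions. How the authors' counting assigned reads of such similar arms is not stated, so the miR-294-3p counts may be uncertain for this reason, which was not tested. The remaining 10 arms of the standard set of 16, those of miR-290a, miR-291a, miR-291b, miR-292b and the 5p arms of miR-294 and miR-295, were not analysed here.

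In the GRCm38 annotation of GENCODE, the 7 hairpins of the plus strand lie within 2216 bases, at chr7:3218626-3220841. Mir290a comes first, followed by Mir291a, Mir292, Mir291b, Mir293, Mir294 and Mir295. All but Mir290a lie opposite an annotated exon of Nlrp12, a gene of the minus strand that encodes a NOD-like receptor protein. miR-293-5p lies at chr7:3220356-3220377 and miR-293-3p at chr7:3220390-3220411, both on the plus strand. miR-292-5p, under its present name, lies at chr7:3219200-3219221. miR-294-3p is at chr7:3220691-3220712 and miR-295-3p at chr7:3220815-3220837. The count table names no genome build. The 80-base Mir293 hairpin is shown with its mature arms in capitals, because it gave reads on both arms and held most of the cluster's reads, 462 of 695.
Mir293 hairpin: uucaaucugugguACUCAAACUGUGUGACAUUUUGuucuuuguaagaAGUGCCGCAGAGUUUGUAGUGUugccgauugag

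The libraries held 239664 to 261903 miRNA counts in Trained and 193013 to 254944 in Exposed, so that 1 read stood for 3.82 to 5.18 CPM, the count scaled to a library total of 1000000. Sperm and late spermatogenic miRNAs, led by miR-34c-5p, were listed for 15 of 15 markers and summed to 323000 to 384400 CPM in Trained, against 362300 to 374000 CPM in Exposed. Marker miRNAs of other cell types had smaller sums, and whether such cells were present was not tested. Striated muscle miRNAs, 4 of 5 listed, summed to 1298 to 1853 CPM in Trained, against 1736 to 3078 CPM in Exposed. Smooth muscle and stroma miRNAs, 6 of 7 listed, summed to 7392 to 8652 CPM in Trained, against 8098 to 15610 CPM in Exposed. Red blood cell miRNAs, 5 of 7 names listed, spanned 445 to 19680 CPM in Trained, against 445 to 7507 CPM in Exposed. Leukocyte miRNAs, 6 of 8 names listed, spanned 2762 to 9397 CPM in Trained, against 2264 to 6134 CPM in Exposed, with miR-223-3p at 0 in at least 1 library. The red blood cell and leukocyte lists held alternative names of the same miRNA, for miR-486 and miR-142. Their names without a row are therefore not missing markers. Epithelial miRNAs, 6 of 6 listed, summed to 1852 to 2467 CPM in Trained, against 2000 to 3566 CPM in Exposed. Exposed 2 held the highest muscle, stroma and epithelial sums, and Trained 3 the highest blood sums, so member results are also given without these libraries.

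Sperm carried the cluster at a low level, mostly as 5p arms. The 6 arms together took 389 reads in the 4 Trained libraries and 306 reads in the 4 Exposed libraries. That was 0.0383% of counts in Trained and 0.0335% in Exposed. miR-293-5p and miR-292-5p, the pair with the CUCAAAC seed, held 73.5% of the cluster's 695 reads. miR-293-3p held 18.4%. The pair with the AAGUGCU seed, miR-294-3p and miR-295-3p, held 5.47%, and miR-292-3p held 2.59%. Counts are of reads with no molecular identifier in the sources used here. Levels of different arms are of reads per mature arm of 22 or 23 bases, and differences in how well each arm enters a library were not measured.

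**Figure D1:**
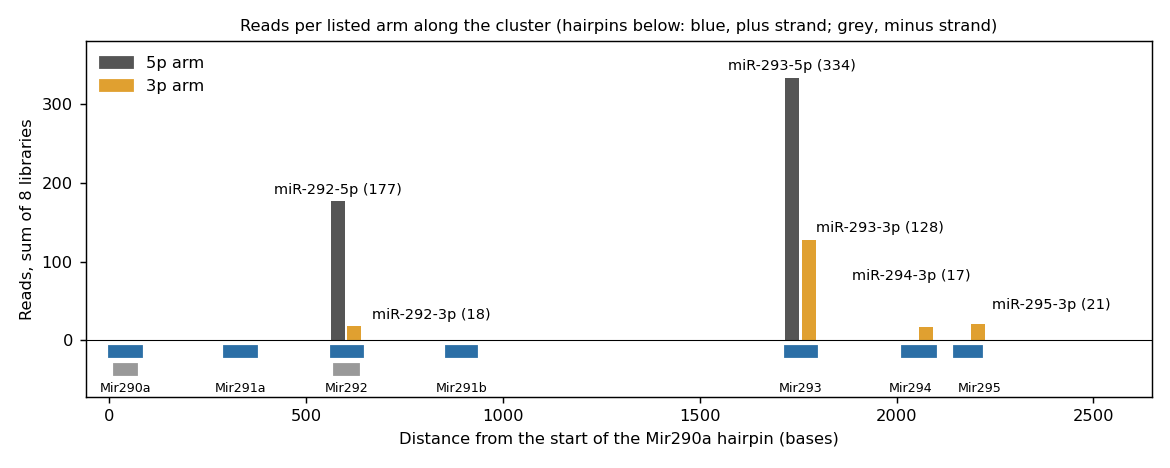
Reads summed over the 8 libraries for each listed arm (vertical axis) against distance in bases from the start of the Mir290a hairpin, with bars placed over their hairpin, dark for 5p and yellow for 3p arms, and hairpins drawn below by strand. The Mir293 hairpin carries the tallest bars, 334 reads for the 5p arm and 128 for the 3p arm, and Mir294 and Mir295 carry 17 and 21 reads.

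Within the table, the cluster's arms fell into 2 tiers of abundance. miR-293-5p ranked 143 of 387 by mean level over the 8 libraries, miR-292-5p ranked 163 and miR-293-3p ranked 192. The lower tier held miR-295-3p at rank 325, miR-292-3p at rank 341 and miR-294-3p at rank 351. miR-293-5p exceeded miR-292-5p in 8 of 8 libraries. miR-292-5p exceeded miR-293-3p in 6 libraries, tied with it in 1 and lay below it in 1. miR-293-3p exceeded miR-295-3p in 8 of 8 libraries. The order within the lower tier was not fixed, since miR-295-3p exceeded miR-292-3p in 4 libraries, and miR-292-3p exceeded miR-294-3p in 4. The miRNAs nearest to miR-293-5p in mean level were miR-185-5p and miR-98-5p above it, at 174 and 173 CPM, and miR-28a-5p and miR-17-5p below it, at 171 and 169 CPM, against 172 CPM for miR-293-5p. These neighbours were picked for their closeness in mean level, so that closeness is a description and was not tested. For miR-293-5p each group's SD was 29.3 CPM or more. The median over all listed miRNAs was 65.9 CPM.

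**Figure D2:**
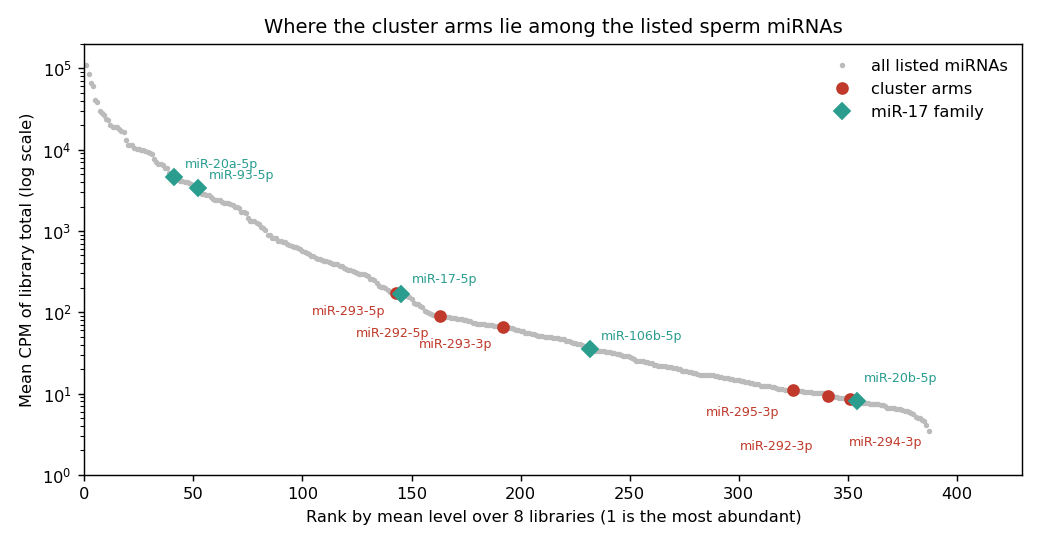
Mean CPM of the library total over 8 libraries, on a log scale, against rank for the 387 listed miRNAs (grey), with the 6 cluster arms (red circles) and the 5 listed miRNAs of the miR-17 family (green diamonds). The 3 upper cluster arms lie at ranks 143 to 192 and the 3 lower ones at ranks 325 to 351, while miR-20a-5p and miR-93-5p stand at ranks 41 and 52.

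miR-293-5p was the most abundant arm of the cluster. It took 45, 46, 57 and 35 reads in Trained 1 to 4, and 47, 25, 53 and 26 reads in Exposed 1 to 4. Scaled to the library total it stood at 180, 177, 218 and 146 CPM in Trained 1 to 4, against 194, 120, 208 and 135 CPM in Exposed 1 to 4. The groups overlapped, with Exposed 2 and Exposed 4 below every Trained library, and Exposed 1 and Exposed 3 above 3 of the Trained libraries. Means were 180.0 ± 29.3 CPM in Trained, against 164 ± 43.5 CPM in Exposed (SD, n = 4 each). Counting error alone gives an SD of 26.7 CPM in Trained, against 27.5 CPM in Exposed, so the Trained libraries differed by little more than reads drawn at random would. The fitted log2 fold change, Trained over Exposed, was 0.09 (SE 0.22, FDR = 0.998 by edgeR's quasi-likelihood test). Its 95% interval ran from -0.40 to 0.57, a fold of 0.76 to 1.49. The unadjusted exact permutation p for the CPM means was 0.60 (two-sided, n = 4 each, where 0.0286 is the smallest that 70 assignments allow). Without Exposed 2 the value turned to -0.03, and without Exposed 2 and Trained 3 to -0.09. Leaving out Exposed 1 or Trained 4 gave 0.18, Exposed 3 gave 0.24, Exposed 4 gave 0.03 and Trained 3 gave 0.01. In bulk sperm RNA, fewer cells carrying an arm and less of it per cell cannot be told apart.

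miR-292-5p, the other arm with the CUCAAAC seed, had in each group a smaller SD in CPM than miR-293-5p, but a larger one relative to its mean. It took 22, 35, 22 and 19 reads in Trained 1 to 4, and 30, 13, 23 and 13 reads in Exposed 1 to 4. Its levels were 87.8, 134, 84.0 and 79.3 CPM in Trained 1 to 4, against 124, 62.2, 90.2 and 67.4 CPM in Exposed 1 to 4. Trained 2 stood above the other Trained libraries, Exposed 1 above the other Exposed libraries, and the groups overlapped. The means were 96.3 ± 25.5 CPM in Trained, against 86.0 ± 28.1 CPM in Exposed (SD, n = 4 each), with 19.6 and 19.9 CPM as the SD from counting alone. The log2 fold change was 0.12 (SE 0.26, 95% interval -0.46 to 0.70, FDR = 0.998 by edgeR), and the exact permutation p was 0.571. It turned to -0.06 when Trained 2 was left out and to -0.0027 when Exposed 2 was left out. Leaving out Exposed 1 gave 0.35, Exposed 4 gave 0.04, Trained 3 gave 0.21 and Trained 4 gave 0.20.

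miR-293-3p, from the opposite arm of the miR-293 hairpin, had the smallest SD relative to its mean of the listed arms among Trained libraries. It took 17, 19, 20 and 20 reads in Trained 1 to 4, and 18, 13, 11 and 10 reads in Exposed 1 to 4. That gave 67.9, 72.9, 76.4 and 83.5 CPM in Trained 1 to 4, against 74.4, 62.2, 43.1 and 51.8 CPM in Exposed 1 to 4. A Trained library lay above an Exposed one in 14 of 16 pairs, and the groups overlapped only through Exposed 1, which stood above Trained 1 and Trained 2. Means were 75.1 ± 6.54 CPM in Trained, against 57.9 ± 13.5 CPM in Exposed (SD, n = 4 each). Both SDs were below those that counting error alone gives, 17.2 and 16.1 CPM. The log2 fold change was 0.34 (SE 0.24, 95% interval -0.20 to 0.88, FDR = 0.998 by edgeR), and the exact permutation p was 0.0857, unadjusted. The value stayed above 0 without any 1 library, between 0.23 without Exposed 3 and 0.50 without Exposed 1, and was 0.42 without Exposed 2 and Trained 3.

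**Figure D3:**
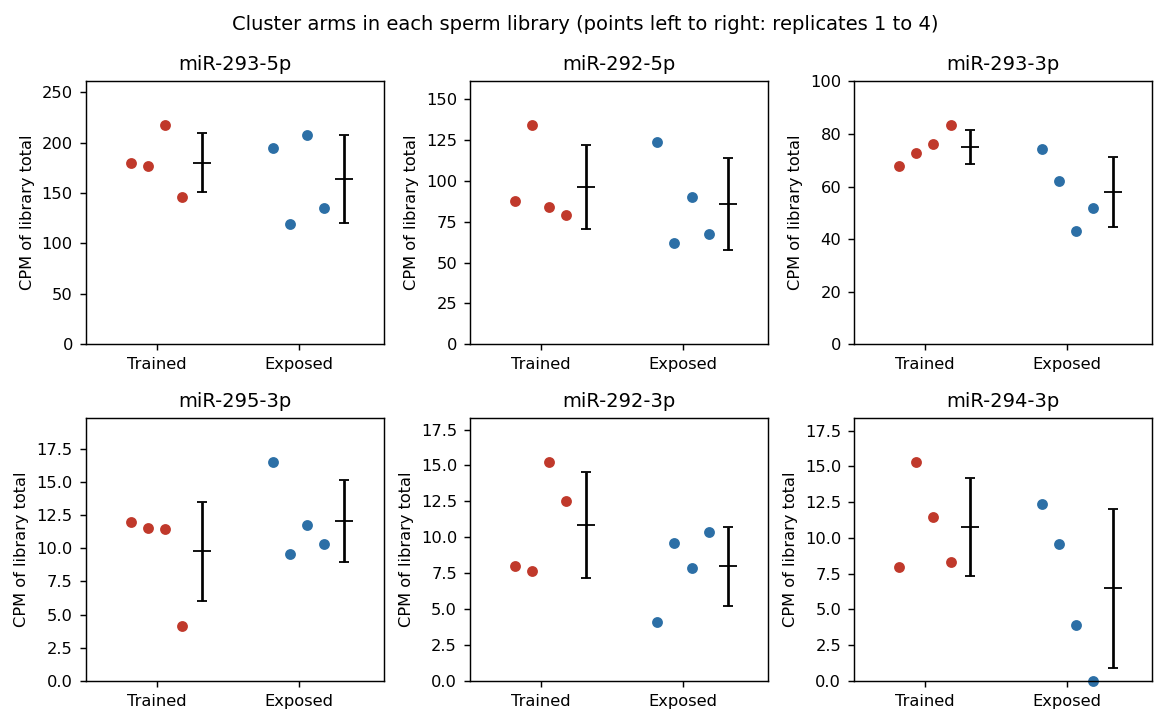
Level of each listed arm in CPM of the library total, with 1 point per library (red for Trained, blue for Exposed, replicates 1 to 4 from left to right) and the group mean with its SD in black. Trained and Exposed points overlap for each of the 6 arms, most narrowly for miR-293-3p, where Exposed 1 at 74.4 CPM lies among Trained values of 67.9 to 83.5 CPM.

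The 3 scarce arms had too few counts to pass the filter and were tested only with lower filters. miR-295-3p took 3, 3, 3 and 1 reads in Trained 1 to 4, and 4, 2, 3 and 2 reads in Exposed 1 to 4. The miR-294-3p counts, from one of the main cell cycle arms of embryonic stem cells, were 2, 4, 3 and 2 reads in Trained 1 to 4, and 3, 2, 1 and 0 reads in Exposed 1 to 4. For miR-292-3p they were 2, 2, 4 and 3 reads in Trained 1 to 4, and 1, 2, 2 and 2 reads in Exposed 1 to 4. No library held more than 4 reads of any of these arms, and the exact 95% counting interval of 3 reads spans 0.619 to 8.77 reads. Group means were 9.78 ± 3.75 CPM in Trained, against 12.1 ± 3.12 CPM in Exposed for miR-295-3p (SD, n = 4 each). For miR-294-3p they were 10.8 ± 3.42 CPM in Trained, against 6.47 ± 5.57 CPM in Exposed, and for miR-292-3p 10.9 ± 3.68 CPM in Trained, against 7.98 ± 2.77 CPM in Exposed. With no count filter, edgeR's quasi-likelihood test gave log2 fold changes of 0.65 for miR-294-3p, 0.44 for miR-292-3p and -0.31 for miR-295-3p (FDR = 0.998 for each). These differences were not detectable at this depth. The Exposed 4 library had 0 reads of miR-294-3p, which allows a level of up to 15.5 CPM by a limit of 3 counts and up to 19.1 CPM by the exact two-sided 95% interval, both for counting error only.

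The comparison of Trained with Exposed asks whether sperm of the 2 treatments differed in the level of the cluster. Of the 6 arms, 3 passed the count filter, and 0 of these 3 passed an FDR of 0.05. Over all 226 miRNAs tested 0 passed as well (0.0%), and 10 (4.42%) had an unadjusted p under 0.05, none of them a cluster arm. DESeq2 also called 0 of 226, with 12 at an unadjusted p under 0.05. All 3 tested arms had fitted values above 0, against 51.8% of all tested miRNAs. With the library total as the only scaling that background was 63.3%. Mean CPM of the library total was higher in Trained for the same 3 arms, against 62.8% of tested miRNAs, and for 5 of all 6 arms, against 59.9% of the 387 listed. The median log2 fold change was 0.12 over the 3 arms and 0.0049 over all 226. The 3 arms share a primary transcript, and an arm enters this count only if its reads pass the filter. The groups overlapped for each of the 6 arms, and 2.21% of tested miRNAs had groups that did not overlap. In the authors' deposited table the log2 fold changes were 0.11 for miR-293-5p, 0.15 for miR-292-5p and 0.37 for miR-293-3p. The authors' deposited table also gave 0.67 for miR-294-3p, 0.09 for miR-292-3p and -0.16 for miR-295-3p, each with an FDR of 1.0. None of the 6 had an unadjusted p under 0.05 in the authors' deposited table, where 5.17% of 387 miRNAs did.

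**Figure D4:**
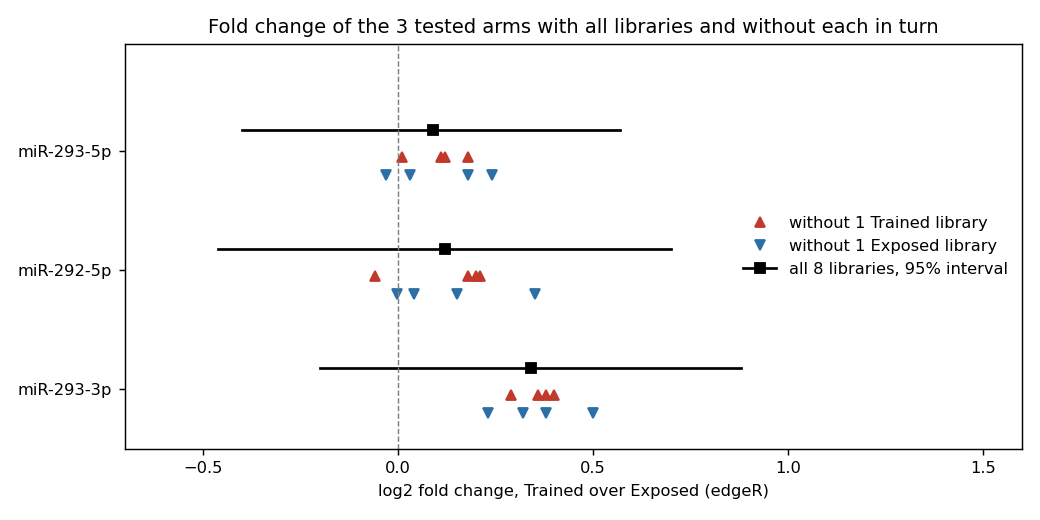
Fitted log2 fold change, Trained over Exposed, of the 3 tested arms with all 8 libraries (black squares with 95% intervals) and with 1 library left out (red triangles without a Trained library, blue without an Exposed library). The intervals of all 3 arms include 0, and the values without 1 library fall on both sides of 0 for miR-293-5p and miR-292-5p.

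Summed over its 6 arms, the cluster had a larger SD among the 4 Exposed than among the 4 Trained libraries, a difference that was not tested. The sums were 363, 418, 416 and 334 CPM in Trained 1 to 4, against 426, 273, 365 and 275 CPM in Exposed 1 to 4. Exposed 2 and Exposed 4 had the lowest sums, from 57 and 53 reads, and Exposed 1 the highest, from 103 reads. The means were 383 ± 41.4 CPM in Trained, against 335 ± 74.5 CPM in Exposed (SD, n = 4 each), a ratio of 1.14. These means lay less than the Exposed SD apart, but more than the Trained SD. Exposed 4 and Exposed 2 also had the smallest library totals, 193013 and 208900 counts. Exposed 2 had the highest summed striated muscle level, at 3078 CPM, and Exposed 4, at 1736 CPM, was the lowest of the Exposed libraries in that sum. For blood markers the order was the reverse. Among Exposed libraries, Exposed 4 had the highest red blood cell and leukocyte sums, 7507 and 6134 CPM, and Exposed 2 the lowest, 445 and 2264 CPM. The part of library size or of other cells in the low cluster sums of Exposed 2 and Exposed 4 was not tested. Without Exposed 2 and Trained 3 the ratio was 1.05, and without any 1 library it lay between 1.08 and 1.26.

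**Figure D5:**
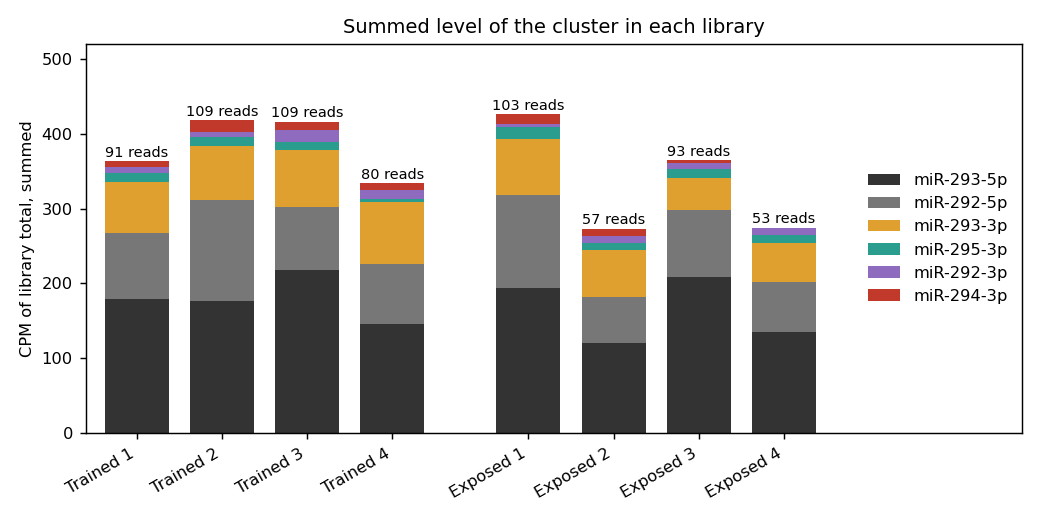
Summed level of the 6 arms in CPM of the library total for each library, stacked by arm, with the number of cluster reads above each bar. Trained libraries range from 334 to 418 CPM and Exposed libraries from 273 to 426 CPM, and miR-293-5p is the largest part of each bar.

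Both hairpins with 2 listed arms gave most of their reads on the 5p arm, and miR-292 more so than miR-293. The 5p arm held 70.3% ± 4.61 of miR-293 reads in Trained and 73.3% ± 7.05 in Exposed (SD, n = 4 each). For miR-292 it held 89.3% ± 4.63 in Trained and 90.5% ± 4.86 in Exposed. Over all libraries the 5p share was 72.3% for miR-293 (334 of 462 reads, exact 95% binomial interval 68.0% to 76.3%). It was 90.8% for miR-292 (177 of 195 reads, 85.8% to 94.4%), and these intervals cover counting error only. The 2 intervals did not overlap. In single libraries the 5p share ran from 84.6% to 96.8% for miR-292 and from 63.6% to 82.8% for miR-293, while for each hairpin the Trained and Exposed values overlapped. Among 90 miRNA names with both arms listed, the lesser arm held a median of 14.2% of reads. With 27.7% on its lesser arm, miR-293 was above that median, with 23 names higher, and miR-292, with 9.23%, was below it, with 54 names higher. The 5p arm was the more abundant one for 53 of the 90.

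The miR-17 family, whose seed AAAGUGC overlaps the AAGUGC letters of the cluster's 3p arms, was far more abundant in the same libraries. The list of relatives held 16 names, and these included miR-302 and miR-367 arms taken by family, not by seed. Of the 16 names, 5 were listed. They were miR-17-5p, miR-20a-5p, miR-20b-5p, miR-93-5p and miR-106b-5p, which come from the miR-17 clusters known for promoting cell growth. miR-20a-5p stood at 4787 ± 900 CPM in Trained, against 4523 ± 1102 CPM in Exposed, and miR-93-5p at 3565 ± 214 CPM in Trained, against 3277 ± 488 CPM in Exposed (SD, n = 4 each). The 5 together summed to 8575 ± 1102 CPM in Trained, against 8002 ± 1559 CPM in Exposed. miR-294-3p and miR-295-3p together came to 20.6 ± 6.06 CPM in Trained, against 18.5 ± 7.82 CPM in Exposed. The 2 cluster arms with the CUCAAAC seed reached 276 ± 38.7 CPM in Trained, against 250 ± 68.1 CPM in Exposed. In each of the 8 libraries the miR-17 family had more reads than the CUCAAAC pair. The CUCAAAC pair had 9.5 to 19.5 times the reads of the AAGUGCU pair. That pair took only 2 to 7 reads a library, so counting error limits these ratios. Of the 3 relatives tested, miR-17-5p (log2 fold change 0.05), miR-20a-5p (0.05) and miR-93-5p (0.09), 0 passed an FDR of 0.05 by edgeR. The sequences of the abundant relatives show the shifted seed.
miR-20a-5p: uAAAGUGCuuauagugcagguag
miR-93-5p: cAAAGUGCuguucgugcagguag

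Levels of arms from the same primary transcript were not closely correlated over the libraries. Over 8 libraries, 3 pairs of tested arms were compared. miR-293-5p and miR-292-5p, with the same seed, had a Pearson r of 0.515 (exact permutation p = 0.195, adjusted 0.585 over the 3 pairs). Spearman's rho for that pair was 0.595 (exact permutation p = 0.132, adjusted 0.396). Without Exposed 2 and Exposed 4, the libraries farthest from the median of miR-293-5p, r was 0.0195 over the other 6, whose range is narrower. Both arms of the miR-293 hairpin had r = 0.0477 (exact permutation p = 0.909, adjusted 0.909) and rho = 0.19 (exact permutation p = 0.665, adjusted 0.793), with r = -0.504 without the same 2 libraries. miR-292-5p and miR-293-3p had r = 0.314 (exact permutation p = 0.457, adjusted 0.685) and rho = 0.119 (exact permutation p = 0.793, adjusted 0.793), with r = 0.0465 without Trained 2 and Exposed 1. With 10 to 57 reads per arm and library, counting error limits all of these values.

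Outside the cluster, the 5 tested miRNAs most like miR-293-5p across the 8 libraries were picked as the highest Pearson r, on log2(CPM + 1), among 223 candidates. They were miR-676-5p (r = 0.925), miR-499-5p (0.916), miR-7b-5p (0.899), miR-22-3p (0.894) and miR-148a-3p (0.888). The values are a description, since these miRNAs were chosen for them and all points share the libraries and their totals. miR-676-5p, at 201 ± 21.3 CPM in Trained, against 196 ± 26.6 CPM in Exposed (SD, n = 4 each), had a level close to that of miR-293-5p. miR-148a-3p, at 23990 ± 2837 CPM in Trained, against 23510 ± 3484 CPM in Exposed, and miR-22-3p, at 10730 ± 1409 CPM in Trained, against 9943 ± 1539 CPM in Exposed, were among the abundant sperm miRNAs. miR-499-5p, a miRNA of heart and slow muscle that is on the striated muscle list, stood at 686 ± 69.3 CPM in Trained, against 650 ± 128 CPM in Exposed. The other tested miRNAs of that list, miR-1a-3p and miR-206-3p, were not among the 5. Their log2 fold changes were -0.85 and -1.19 (FDR = 0.998 for each by edgeR), against 0.04 for miR-499-5p. None of the 5 passed an FDR of 0.05 by edgeR, with log2 fold changes between -0.06 and 0.08.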

How the data were processed

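Sperm RNA, extracted with the miRNeasy kit of Qiagen, was sequenced as single-end reads of 50 nt, per the labels' protocols. The table gives, for 8 libraries, read counts per mature miRNA as deposited by the authors. For trimming, aligner, miRNA reference and build, nothing is stated in the labels or the file. Besides counts, the authors' deposited columns are group means of the raw counts (handled as a score, with no error), a log2 fold change, an average log2 CPM, a p-value and an FDR. The submitters' processing notes name edgeR.

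Groups and replicate numbers came from the titles. Levels are counts scaled to a library total of 1000000 (CPM). All 387 miRNAs were filtered by group with the edgeR default, which kept 226. These were scaled with TMM and tested together by robust quasi-likelihood F tests (edgeR 4.0.16, R 4.3.3), with Benjamini-Hochberg adjustment over the 226. Standard errors are the log2 fold change divided by its t quantile. Exact permutation tests, correlations and counting intervals used scipy 1.17.1. The method was tested on simulated data, with changes larger than those fitted for the cluster arms. Every listed miRNA had at least 7 reads in all, in at least 4 libraries. All 8 libraries were kept as separate samples, since pairs within a group gave a chi-square of 3.31 to 61.5 per degree of freedom.

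The members, lists and rules were chosen with earlier results of these data known. Named were every listed arm, the seed relatives, the 2 miRNAs above and the 2 below miR-293-5p in level, and the 5 most correlated with it. Other settings were RLE, upper quartile and library total scaling, no filter, 10 CPM in 4 libraries, DESeq2 1.42.0, no robust estimation, a replicate block, leaving out each library, and totals without the 10 most abundant miRNAs. Leaving out Exposed 2 with Trained 3 was chosen after seeing the data. Hairpin positions come from GENCODE M21 and mature sequences from RefSeq, both on GRCm38.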

Additional observations from a re-analysis of the deposited data

Results flagged for a closer look

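Of 18 checks of 4 libraries each, 2 found a library far from the others of its group, where 0.9 are expected by chance. miR-292-5p in Trained 2 stood at 134 CPM, and the other Trained libraries lay between 79.3 and 87.8 CPM. miR-295-3p in Trained 4 stood at 4.17 CPM, from 1 read, and the other Trained libraries, with 3 reads each, lay between 11.5 and 12.0 CPM. The exact 95% counting interval of 1 read spans 0.0253 to 5.57 reads, which includes 3 reads, so counting error covers this difference.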

How the results depend on the processing

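The count of miRNAs past FDR 0.05 was 0 under all 17 other settings, with 5 to 18 at an unadjusted p under 0.05. The log2 fold change turned sign for miR-293-5p without Exposed 2 (-0.03) and without Exposed 2 and Trained 3 (-0.09), and for miR-292-5p without Trained 2 (-0.06) and without Exposed 2 (-0.0027); the cause was not tested. Without each library in turn it ran from -0.03 to 0.24 for miR-293-5p, from -0.06 to 0.35 for miR-292-5p and from 0.23 to 0.50 for miR-293-3p. Other scalings gave 0.04 to 0.12, 0.07 to 0.15 and 0.29 to 0.37 for these 3 arms in that order, and 41.2% to 63.3% of all tested miRNAs then lay above 0. The ratio of summed levels lay between 1.05 and 1.26 under its 12 other settings. A fit with a replicate block gave 0.11, 0.12 and 0.34, with 0 miRNAs past FDR 0.05 and 14 at an unadjusted p under 0.05. For each library, deviations from its group's mean log2 CPM were taken over the tested miRNAs. These deviations, not the levels, correlated between same-numbered libraries at -0.41, 0.66, 0.691 and 0.494 for numbers 1 to 4. By this measure 3 of the 4 Trained libraries correlated best with the Exposed library of their own number. Whether the numbers mark pairs was not tested. Because number 1 went the other way and the labels give no pairing, the fit without the block was kept. Depth limits the 3 scarce arms, at 0 to 4 reads a library.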
